A study of Mus musculus with 6 samples.

Results

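Lung cells of bleomycin-treated (BLM) mice were compared with lung cells of sham-treated mice before any sorting, and the comparison covered the whole transcriptome. A gene entered when at least 1 of the unsorted libraries held 10 or more of its reads, which left 22772 of the 49315 genes in the count table. Both groups were male C57BL/6 mice of the same genotype; the BLM group had received bleomycin sulfate and the sham group saline, each into the oropharynx. The study took lungs 21 days after instillation, pooled lungs within a group, digested them to single cells, lysed red blood cells and sequenced polyA RNA of the unsorted suspension. It also sequenced cells sorted as Lamp1-depleted and Lamp1-enriched, so the series has 6 libraries, 1 for each combination of treatment and cell preparation. With 1 library a side and pooled lungs there was no replicate check: every interval below covers counting error only and no p-value was computed.

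Bleomycin breaks DNA and injures the alveolar lining. In mice the injury is followed by inflammation, by recruitment of monocytes that become macrophages, and by deposition of matrix by activated fibroblasts, and it resolves only slowly. The lung suspension that is digested from such tissue holds epithelium, endothelium, mesenchyme and blood-derived cells in one tube, so a gene's level reflects both which cells were in the tube and what each cell made. Fewer cells of a type and less RNA per cell cannot be told apart here.

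The BLM unsorted library held 39728284 counted reads and the sham unsorted library 40742095, within the range of 30236120 to 52918696 over the 6 libraries. Their TMM factors (trimmed mean of M values), which put the libraries on one scale, were 0.993 and 1.19. Gm26917 took 7.10% of the reads in BLM and 1.54% in sham, and mitochondrially encoded mRNAs took 8.02% and 5.40%. Short non-coding RNAs without a long poly(A) tail were among the 10 genes with most reads in both libraries (Rn7sk and Rmrp), although the labels give polyA RNA. The part of these shares in the ratios below was not tested. The 4 Y-linked genes checked were detected in both libraries, with log2 ratios of -0.17 to 0.07, and Xist had 11 reads in BLM and 44 in sham.

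Ratios are given as log2 of BLM over sham on TMM-scaled counts. Along the whole range, the middle of the genes lay near 0: the median log2 ratio was -0.07, the quartiles were -0.65 and 0.49, and 10261 genes (45.1%) lay within 0.5 of 0. A gene was called higher or lower when its log2 ratio was at least 1 in size (2-fold) and its 95% counting interval stayed on that side of 0. By this rule 3024 genes (13.3%) were higher in BLM and 3216 (14.1%) were lower, while 574 genes past 2-fold had an interval that reached 0. Just outside the fold limit, 840 genes had a log2 ratio of 0.9 to 1 in size, and just inside it 701 genes had one of 1 to 1.1. Scaling by library totals in place of TMM would move every log2 ratio by -0.26, and it changed the split to 2275 higher and 4720 lower.

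The 2 directions differed in what they were made of. Genes called higher took 31.4% of all BLM reads and 10.3% of sham reads, whereas genes called lower took 5.34% of BLM reads and 16.3% of sham reads. Gm26917, which was called higher, alone took 7.10% of BLM reads and 1.54% of sham reads. Of the 15786 protein-coding genes, 2271 (14.4%) were higher and 1619 (10.3%) lower. Of the 2933 long non-coding genes, 322 were higher and 684 (23.3%) lower, and among 1497 pseudogenes these shares were 12.9% and 20.8%. The lower calls also leaned to rare transcripts. The read minimum was not scaled to depth, so rare genes could enter more easily through sham, where 21842 genes reached it, beside 20534 in BLM. The part of this entry rule in the lean was not tested. Where the higher library held 10 to under 50 reads, 23.2% of genes were lower and 14.9% higher; from 500 to under 5000 reads the shares were 6.67% and 11.2%. At a log2 ratio of -3 or below there were 439 genes, of which 150 (34.2%) were protein-coding and 386 (87.9%) had under 50 reads in the higher library. At 3 or above there were 377 genes, of which 245 (65.0%) were protein-coding. No read was seen in sham for 71 of the higher genes, and none in BLM for 245 of the lower ones.

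**Figure D1:**
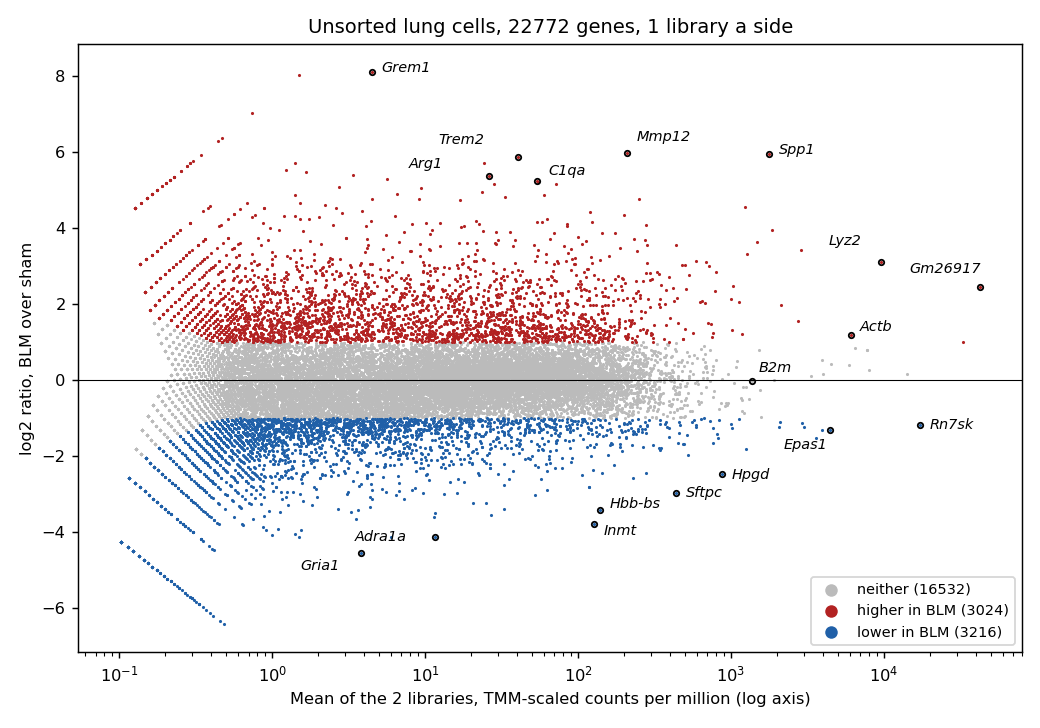
Each point is 1 of the 22772 genes measured. The x axis is the mean TMM-scaled level of the 2 unsorted libraries, in CPM (read counts scaled to a common library size), on a log axis, the y axis the log2 ratio of BLM over sham, and red and blue mark genes called higher (3024) and lower (3216). Spp1, Lyz2 and Gm26917 are both abundant and higher, and Rn7sk and Epas1 abundant and lower.

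The largest ratio among genes with at least 100 reads was that of Grem1, a secreted antagonist of bone morphogenetic proteins. It had 352 reads in BLM and 1 in sham, a log2 ratio of 8.13 with a counting interval of 6.27 to 14.07. Several genes known from macrophages followed. Trem2, a lipid-sensing receptor of macrophages, had 3134 reads in BLM and 65 in sham (log2 ratio 5.88, 5.54 to 6.27). Arg1, the enzyme that turns arginine into ornithine, had 2020 and 59 reads (5.38, 5.02 to 5.80). The 3 chains of complement C1q moved together, with 4125 and 133 reads for C1qa, 5464 and 187 for C1qb, and 2168 and 74 for C1qc, and log2 ratios of 5.25, 5.16 and 5.16. The receptor for the complement fragment C3a, C3ar1, had 4197 and 139 reads (5.21), and the scavenger receptor Msr1 4570 and 192 (4.87).

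The 25 leading genes also held others. Cldn4, a tight junction protein of stressed and transitional epithelium, had 259 reads in BLM and 7 in sham (5.40, 4.45 to 6.84). Rnf128, a ubiquitin ligase, had 1874 and 43 reads (5.73), H2-M2, a non-classical class I gene, 1291 and 59 (4.74), and Fam20c, a kinase of secreted proteins, 2533 and 109 (4.83). Some had so few sham reads that the interval is wide: Cd200r2 had 129 reads against 3 (5.49, 4.15 to 8.02), Atf7ip2 109 against 2 (5.72, 4.18 to 9.13) and Adora3, an adenosine receptor, 108 against 4 (4.87, 3.66 to 6.96). The 25 leading protein-coding genes ended at Ctss (cathepsin S), with a log2 ratio of 4.57.

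A ratio ranks genes regardless of how much RNA they account for, so the same libraries were also ordered by the gain in TMM-scaled CPM (read counts scaled to a common library size). The summed gain of all genes called higher was 229653 CPM, and 8 genes, with Gm26917 first, held more than 50% of it. The sum without Gm26917 was not computed. Gm26917 gained most, from 12911 CPM in sham to 71480 in BLM. Lyz2, the lysozyme of macrophages and monocytes, went from 1995 to 17243 CPM (log2 ratio 3.11), Psap, the precursor of the saposins that help to degrade lysosomal lipids, from 489 to 5278 (3.43), and Ctsd (cathepsin D) from 220 to 2733 (3.63). Spp1 (osteopontin) went from 56.9 to 3504 CPM and the matrix protein fibronectin, Fn1, from 226 to 3509. Mpeg1, a pore-forming protein of macrophages, went from 233 to 2314 CPM (3.31), and Fth1, the ferritin heavy chain, from 857 to 3360 (1.97).

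Ranks per length show the same shift within each library. Read counts scaled to depth and exon length (RPKM) place Lyz2 at rank 1 among nuclear protein-coding genes in BLM and at rank 3 in sham. Spp1 ranked 4 in BLM and 739 in sham, with 2126 and 34.5 RPKM. Ctss ranked 6 and 263, with 1737 and 73.4 RPKM, and Psap 5 and 75. In the other direction, Sftpc, which encodes surfactant protein C, ranked 204 in BLM and 11 in sham, with 95.7 and 754 RPKM. Hpgd, the enzyme that inactivates prostaglandins, ranked 90 and 9, with 161 and 882 RPKM.

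**Figure D2:**
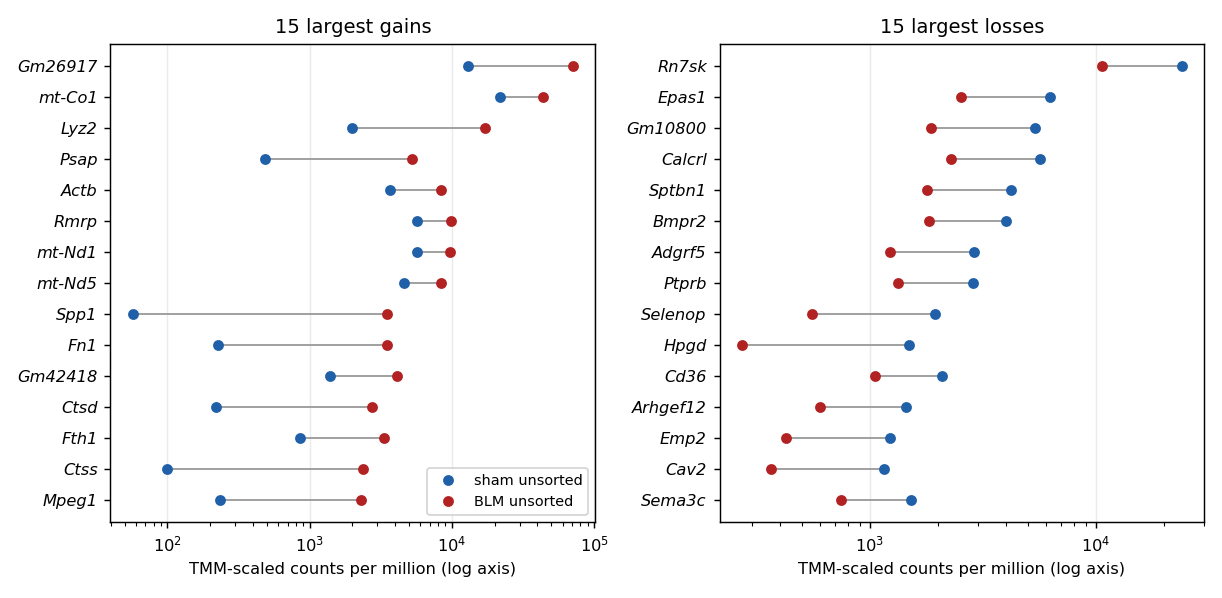
TMM-scaled CPM on a log axis for the 15 genes with the largest gain and the 15 with the largest loss, with 1 blue point for sham unsorted and 1 red point for BLM unsorted cells. Spp1 moves from 56.9 to 3504 and Hpgd from 1485 to 271.

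Of the summed loss of all genes called lower, 20 genes held more than 50%. The count of 8 for the gain includes Gm26917, so these counts do not show which direction was spread wider. Epas1, a hypoxia-regulated transcription factor abundant in lung endothelium, went from 6280 CPM in sham to 2537 in BLM (log2 ratio -1.31). Calcrl, a receptor for adrenomedullin, went from 5652 to 2277 (-1.31), and Bmpr2, the type 2 bone morphogenetic protein receptor, from 3986 to 1821 (-1.13). Adgrf5 (-1.23), Ptprb (-1.11), Cav2 (-1.66) and Sema3c (-1.02) were also among the 15 largest losses. Cd36, a fatty acid transporter of capillaries and macrophages, went from 2083 to 1059 CPM and was not called (-0.98). Hpgd went from 1485 to 271 CPM (-2.45) and Selenop, a selenium carrier, from 1937 to 557 (-1.80).

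By ratio, the order of the lower genes was a different one. Gria1, a glutamate receptor subunit, had 12 reads in BLM and 357 in sham (log2 ratio -4.54, -5.56 to -3.77). Adra1a, the alpha-1A adrenergic receptor, had 49 and 1063 (-4.13), and Acoxl, an acyl-CoA oxidase-like gene, 25 and 546 (-4.13). Inmt, an amine methyltransferase of alveolar fibroblasts, had 684 and 11524 reads (-3.77, -3.89 to -3.66). Lrat, which esterifies retinol for storage, had 166 and 2415 reads (-3.56), and Cyp1a1, the dioxin-inducible cytochrome P450, 75 and 1041 (-3.49). Adcy8, an adenylate cyclase, had 156 and 1818 reads (-3.24), and Fibin, a marker of aerocyte capillaries, 451 and 4540 (-3.03).

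To describe which cells these genes mark, 37 lists of cell type markers were read gene by gene. Of the 276 marker genes measured, 75 (27.2%) were higher in BLM and 83 (30.1%) lower, beside 13.3% and 14.1% of all genes. The lists of macrophages lay at one end and those of pericytes, red cells and platelets at the other. All markers were chosen with earlier results of these data known, so the counts are descriptions.

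**Figure D3:**
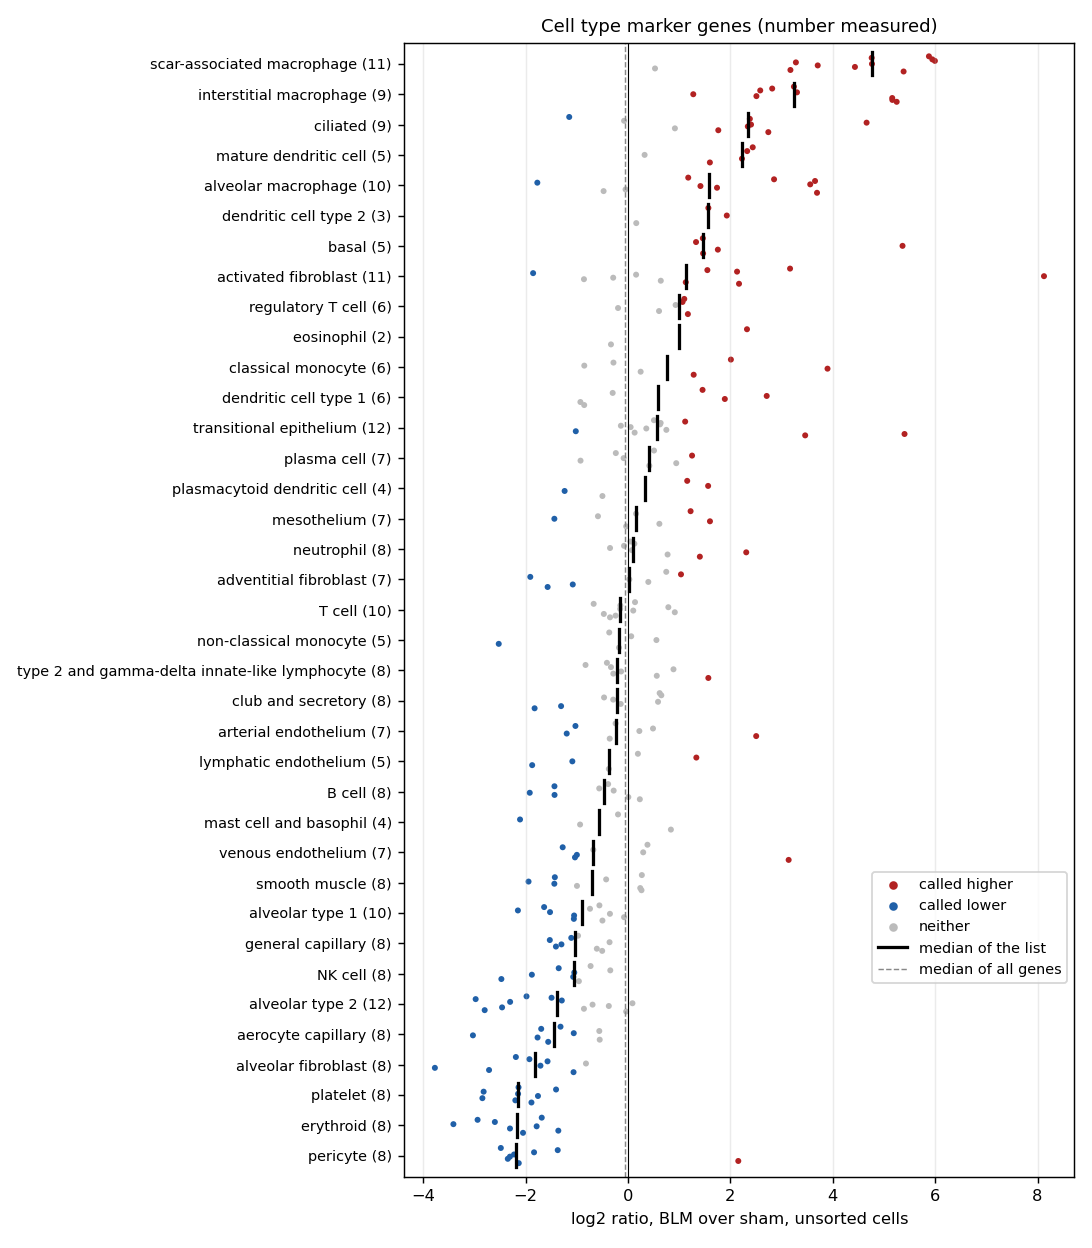
Log2 ratio of BLM over sham for each measured member of 37 cell type marker lists, ordered by the median (black bar); the number measured stands in brackets and the dashed line is the median of all genes, -0.07. Scar-associated macrophage markers have a median of 4.76 and pericyte markers one of -2.18.

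Macrophage markers were higher almost throughout. Of the 11 markers of scar-associated macrophages, the lipid-laden cells described in fibrotic lungs, 10 were higher, with a median log2 ratio of 4.76. Gpnmb, a lysosomal glycoprotein, had 19044 reads in BLM and 861 in sham (4.77), Syngr1 342 and 15 (4.76), Fabp5, a fatty acid carrier, 2826 and 266 (3.71), and Lgals3 (galectin 3) 11310 and 1433 (3.28). The exception was Cd9, which platelets and endothelium also carry, with 11151 and 9525 reads (0.53). All 9 markers of interstitial macrophages were higher, with a median of 3.24, from Cx3cr1 with 1235 and 628 reads (1.27) up to the C1q chains. Csf1r, the receptor for the macrophage growth factor, had 11060 and 2392 reads (2.51) and the mannose receptor Mrc1 20468 and 3576 (2.82).

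Resident alveolar macrophage markers were split. Of 10 measured, 7 were higher and 1 lower, with a median of 1.58. Atp6v0d2, a proton pump subunit, had 20128 reads in BLM and 1916 in sham (3.69), Marco 496 and 48 (3.65), Itgax, which encodes CD11c, 31628 and 3301 (3.56), and Plet1 7616 and 1297 (2.85). Siglecf, the surface lectin by which these cells are usually recognized, had 1271 and 692 (1.18). Krt79 was lower, with 140 and 590 reads (-1.77), and neither Ear1 (-0.05) nor Cidec (-0.48) was called. Summed over the list, the level was 1837 CPM in BLM and 268 in sham.

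Other myeloid lists were mixed. Among classical monocyte markers, Fcgr1, an IgG receptor, had 539 reads in BLM and 44 in sham (3.90) and Ccr2 4224 and 2137 (1.28), whereas Ly6c2, the antigen by which mouse monocytes are sorted, had 144 and 321 (-0.86, not called). Neutrophil markers had a median of 0.10, with S100a8 at 540 and 610 reads (0.12) and S100a9 at 255 and 304 (0.05); Csf3r (1.40) and Mmp8 (2.31) were higher. Of the non-classical monocyte markers, Cd300e was lower with 48 and 343 reads (-2.53) and the other 4 were not called. Mature dendritic cell markers were higher in 4 of 5, including the chemokine Ccl22 with 1564 and 411 reads (2.23), the actin bundler Fscn1 with 2200 and 539 (2.33) and the interleukin 12 subunit Il12b with 279 and 63 (2.44). Type 1 dendritic cell markers did not move as one: Naaa (2.71), Itgae (1.89) and Xcr1 (1.46) were higher, and Clec9a (-0.93) and Cadm1 (-0.86) lay below 0.

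The lysosome list went furthest of the pathways. Lysosomes are the acid compartments in which cells break down engulfed and internal material, and macrophages are rich in them. All 27 genes lay above 0 and 25 were called higher, with a median log2 ratio of 2.73 beside -0.07 for all genes. The counts of this list and of those below stand beside 13.3% higher and 14.1% lower among all genes. Summed, the list went from 2592 CPM in sham to 18558 in BLM. The cysteine proteases Ctss (99.7 to 2359 CPM, 4.57) and Ctsk (10.6 to 228 CPM, 4.43) and the acid phosphatase Acp5 (6.12 to 110 CPM, 4.17) led after Gpnmb. The 2 genes not called were the membrane glycoproteins Lamp1 and Lamp2. Lamp1, the surface protein by which the study sorted cells, had 319 CPM in sham and 501 in BLM (0.65, 0.62 to 0.68), and Lamp2 266 and 476 (0.84, 0.81 to 0.87). Glb1, which encodes the beta-galactosidase used to stain senescent cells, had 8.84 and 21.5 CPM (1.28, 1.12 to 1.46).

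Many lysosomal genes carry an E-box of the letters TCACGTG near their start, the core of the element read by the TFEB family of transcription factors, so the promoters of 3 list members that hold it are shown. They are the 250 bases before the start in RefSeq (GRCm38.p6), 5′ to 3′ on the gene's strand, with the letters TCACGTG, or the same letters read on the other strand, in capitals.
Ctsd, chr7:142387828-142388077, minus strand: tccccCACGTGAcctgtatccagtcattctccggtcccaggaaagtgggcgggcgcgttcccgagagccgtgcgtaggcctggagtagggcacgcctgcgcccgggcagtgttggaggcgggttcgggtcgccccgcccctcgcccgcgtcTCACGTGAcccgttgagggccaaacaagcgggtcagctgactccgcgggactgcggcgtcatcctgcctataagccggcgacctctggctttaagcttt
Lamp1, chr8:13158911-13159160, plus strand: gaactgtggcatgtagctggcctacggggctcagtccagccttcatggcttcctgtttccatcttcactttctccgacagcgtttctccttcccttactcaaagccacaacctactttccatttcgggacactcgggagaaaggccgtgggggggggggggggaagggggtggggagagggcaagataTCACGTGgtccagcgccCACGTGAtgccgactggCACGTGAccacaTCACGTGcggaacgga
Glb1, chr9:114400828-114401077, plus strand: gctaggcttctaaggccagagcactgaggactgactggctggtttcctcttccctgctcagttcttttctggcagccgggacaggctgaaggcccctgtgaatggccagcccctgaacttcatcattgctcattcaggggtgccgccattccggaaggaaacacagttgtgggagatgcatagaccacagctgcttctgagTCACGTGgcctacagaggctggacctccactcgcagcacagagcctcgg
Lamp1 holds 4 separate matches within 62 bases of its start and Glb1 holds 1. Ctsd has 3 matches in 2 stretches, since TCACGTGA reads as a match on each strand. In the 300-base windows from 250 bases before to 50 after the start, TCACGTG was present for 6 of the 21 lysosome genes with an entry (28.6%), for 6.12% of the 1863 higher genes, for 4.08% of the 1495 lower genes and for 6.18% of all 13478 measured genes with an entry. Lamp1, with most matches of the genes shown, was not called.

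The letters TGANTCA, where N is any base, take in the AP-1 site of the Fos and Jun families, which has C or G at N. They also take in TGAATCA and TGATTCA, so a match need not be an AP-1 site. The letters were present for 10.6% of higher genes, 9.03% of lower genes and 7.09% of all measured genes. Trem2 and Mmp12 were among the genes holding them, and Trem2 holds them as TGAATCA 9 bases before the start. Inmt is shown beside it as a leading lower gene, with its pair of TATAAA matches in capitals; TATAAA was present for 13.1% of higher, 14.1% of lower and 10.3% of all genes.
Trem2, chr17:48346151-48346400, plus strand: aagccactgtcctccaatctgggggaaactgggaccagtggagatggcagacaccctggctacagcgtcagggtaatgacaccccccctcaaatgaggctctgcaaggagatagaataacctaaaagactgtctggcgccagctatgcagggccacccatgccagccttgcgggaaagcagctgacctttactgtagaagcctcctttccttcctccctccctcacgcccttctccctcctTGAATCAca
Inmt, chr6:55174991-55175240, minus strand: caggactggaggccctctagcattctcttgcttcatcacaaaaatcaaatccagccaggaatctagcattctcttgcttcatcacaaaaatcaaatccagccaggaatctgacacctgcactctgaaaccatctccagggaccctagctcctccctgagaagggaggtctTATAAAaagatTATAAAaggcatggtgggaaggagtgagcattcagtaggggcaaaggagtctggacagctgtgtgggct
In all 16 motifs were searched on both strands after the expression values were known, and a match is no evidence that a factor was bound. Besides those above, TTTGAA and CCAAT below, they were TCACGTGA and CACGTG, which overlap TCACGTG, and GGAAGT of the ETS factors, TGACGTCA of the CREB factors, TTCNNNGAA, TCACNCCAC, GGGACTTTC of the NF-kB factors, CAAGTG of the NKX factors, AACCACA of the RUNX factors, TGTTTAC of the FOX factors and TGANNNNGC.

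Lipid handling was higher along with the lysosome in unsorted cells. Of 24 genes of lipid and cholesterol metabolism, 14 were higher and 1 lower, with a median of 1.06. Apoe, the lipoprotein that carries cholesterol out of macrophages, had 8668 reads in BLM and 1249 in sham (3.09). Lpl, which releases fatty acids from lipoproteins, had 54981 and 9455 (2.84), Soat1, which esterifies cholesterol, 20165 and 3978 (2.64), and the cholesterol exporter Abca1 24896 and 5926 (2.37). The lower member was Acoxl (-4.13). Among 18 genes of glycolysis and the hypoxia response, 9 were higher and 1 lower, with a median of 1.04. Hexokinase 2, Hk2, had 3742 and 392 reads (3.55), the glucose transporter Slc2a1 3134 and 973 (1.99) and enolase, Eno1, 10750 and 3085 (2.10), while the vasodilator gene Adm had 72 and 210 (-1.24).

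**Figure D4:**
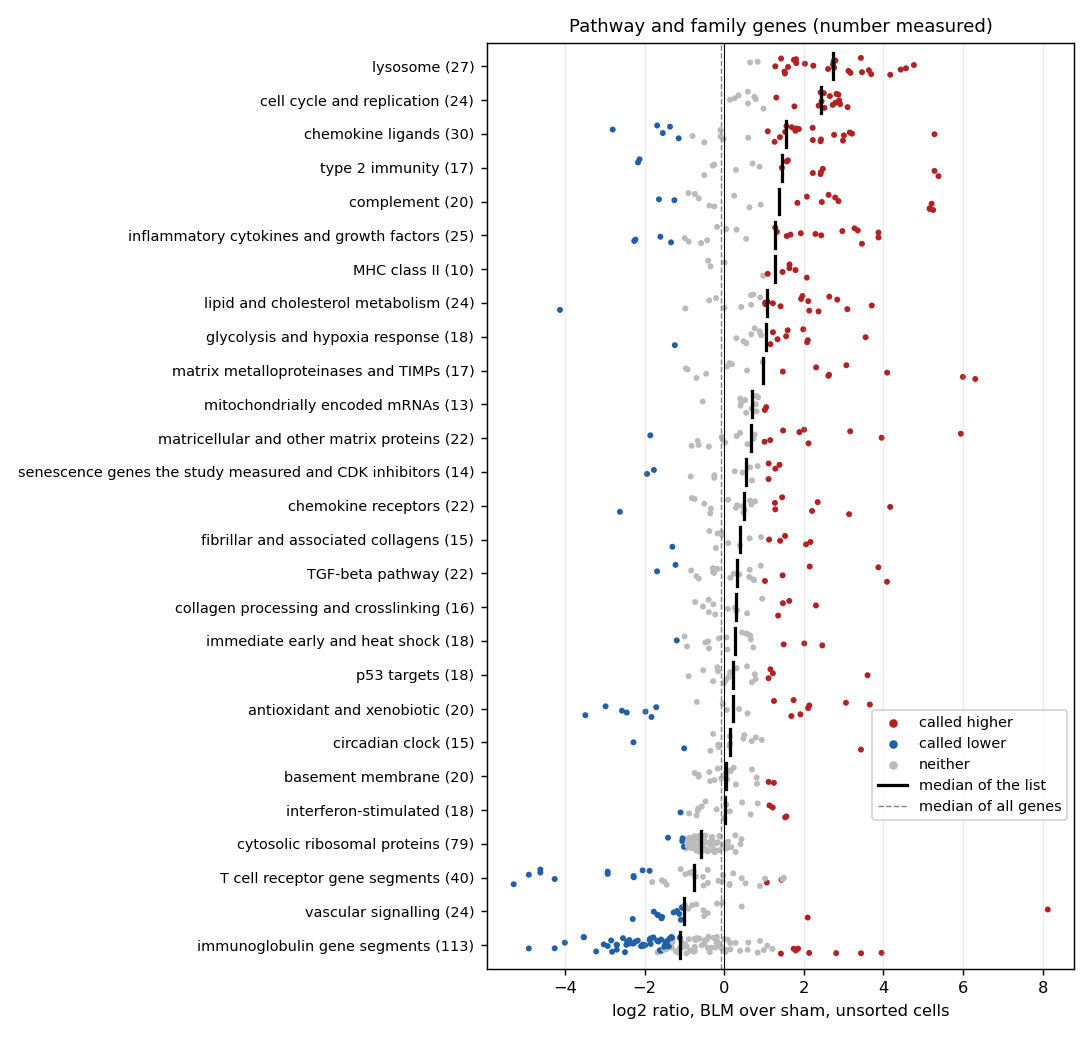
Log2 ratio of BLM over sham for each measured member of 27 pathway lists and gene families, ordered by the median (black bar), with the number measured in brackets and the median of all genes dashed. The lysosome list has a median of 2.73, vascular signalling one of -1.01 and immunoglobulin segments one of -1.12.

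Complement, antigen presentation and soluble signals showed more members higher than lower. Complement genes were higher in 10 of 20 and lower in 2. Beyond C1q and C3ar1, the receptor C5ar2 had 752 reads in BLM and 126 in sham (2.87), whereas the terminal components C7 with 1383 and 5300 (-1.64) and C6 with 95 and 279 (-1.25) were lower. MHC class II genes, which present antigen to CD4+ T cells, were higher in 6 of 10 and lower in none, with the invariant chain Cd74 at 71716 and 20982 reads (2.07) and H2-Ab1 at 21625 and 9642 (1.46).

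Of 30 chemokine ligands measured, 19 were higher and 5 lower, with a median of 1.55. Ccl6 had 50716 reads in BLM and 7765 in sham (3.01), Ccl9 6751 and 897 (3.21), the neutrophil attractant Cxcl1 1486 and 205 (3.15) and the monocyte attractant Ccl2 228 and 35 (2.98). Ccl8 had 17 reads in BLM and none in sham, at least 6.97-fold higher when sham is set to the floor of 3 reads. Lower were the epithelial Cxcl15 with 1161 and 9962 (-2.80) and the endothelial Cx3cl1 with 807 and 2893 (-1.54). Among receptors, Ccr1 had 4262 and 1136 reads (2.21), while the scavenging receptor Ackr4 had 116 and 880 (-2.62).

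Cytokines and growth factors included genes in both directions: 13 of 25 were higher and 4 lower. Igf1, the insulin-like growth factor made by macrophages and fibroblasts, had 5147 reads in BLM and 431 in sham (3.88, 3.74 to 4.02 by counting). The interleukin 1 antagonist Il1rn had 10533 and 883 (3.87), oncostatin M, Osm, 6163 and 741 (3.35), Pdgfc 1363 and 173 (3.27) and the epidermal growth factor receptor ligand Areg 765 and 85 (3.46). The fibroblast growth factors that act on alveolar epithelium were lower, Fgf10 with 66 and 391 (-2.26) and Fgf7 with 86 and 498 (-2.23). Type 2 immunity genes were higher in 9 of 17 measured and lower in 2. Chil3, a chitinase-like protein of alternatively activated macrophages, had 68856 and 15211 reads (2.48) and Ccl17 489 and 112 (2.42). The 2 lower members were the cytokine genes Tslp, with 27 and 147 reads (-2.13), and Il5, with only 4 and 24 (-2.17). The other interleukin genes of that list are not reported here.

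Interferon-stimulated genes were mostly not called. Of 18, 4 were higher and 1 lower, a median of 0.02, with Cxcl9 at 109 reads in BLM and 45 in sham (1.56), Cxcl10 at 257 and 109 (1.53) and Ifit1, which was lower, at 370 and 974.

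Matrix genes were higher in part, beside 13.3% higher and 14.1% lower among all genes. Of 15 fibrillar and associated collagens, 5 were higher and 1 lower; Col15a1, a collagen next to basement membranes, had 1527 reads in BLM and 452 in sham (2.05), Col5a3 355 and 151 (1.53) and Col1a2 7336 and 3408 (1.41), and Col12a1 was lower with 1146 and 3474 (-1.30). In basement membranes only the paired chains Col4a1, with 31367 and 16253 reads (1.25), and Col4a2, with 16581 and 9413 (1.12), passed among 20 genes, and neither did with library totals as the scaling. Matricellular proteins were higher in 9 of 22 and lower in 1. Tenascin C, Tnc, had 1724 and 236 reads (3.17), the proteoglycan Vcan 1539 and 470 (2.01) and cartilage oligomeric matrix protein, Comp, 72 and 20 (2.12).

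Markers of fibroblast types went in different directions. Of 11 markers of activated fibroblasts, 6 were higher, among them Grem1, Tnc and Runx1 (11730 and 3298 reads, 2.13), but Postn (periostin), a matrix protein often used to mark these cells, was lower with 1121 reads in BLM and 4992 in sham (-1.85, -1.95 to -1.76 by counting). Cthrc1 had 32 and 72 reads (-0.86) and Fap 77 and 116 (-0.29), neither of them called. Alveolar fibroblast markers were lower in 7 of 8, with a median of -1.82: besides Inmt, the transcription factor Tcf21 had 98 and 553 reads (-2.19), Fgfr4 70 and 569 (-2.72) and Npnt 1845 and 6757 (-1.57). Adventitial fibroblast markers were mixed, with Pi16 at 350 and 210 reads (1.03) and Dpt at 359 and 1662 (-1.91).

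Proteases and their inhibitors were higher in 8 of 17 and lower in none. Mmp12, the macrophage elastase, had 16250 reads in BLM and 313 in sham, and Mmp19 20809 and 1500 (4.09). The membrane-bound Mmp14 had 4750 and 942 reads (2.63). Mmp10 had 35 reads in BLM and none in sham, at least 14.4-fold higher against the floor of 3 reads. Collagen processing enzymes were higher in 4 of 16, with P4ha3 at 66 and 16 reads (2.30) and Plod3 at 6247 and 2477 (1.63). In the TGF-beta pathway 5 of 22 were higher and 2 lower, beside 13.3% and 14.1% of all genes. Inhba, which forms activin A, had 187 and 13 reads (4.09), the induced matrix protein Tgfbi 12825 and 1077 (3.87), and the receptor Tgfbr1 18405 and 5113 (2.15). The inhibitory Smad6 had 3512 and 13904 (-1.69) and the co-receptor Tgfbr3 3100 and 8904 (-1.22).

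Genes of dividing cells were higher. Of 24 cell cycle and replication genes all lay above 0 and 16 were called, with a median of 2.43 in unsorted cells. Birc5 had 268 reads in BLM and 38 in sham (3.10), cyclin B2, Ccnb2, 401 and 65 (2.91), the mitotic kinesin Kif11 809 and 134 (2.89), the kinetochore protein Cenpf 668 and 112 (2.87) and the mitotic kinase Plk1 157 and 26 (2.87). Genes of the G2 and M phases often carry the letters TTTGAA close to their start, the core of the cell cycle genes homology region. TTTGAA was present in the windows of 10 of the 20 list members with an entry and of 15.5% of all genes, and CCAAT in 17 of 20 (85.0%) and 41.8%. Kif11 is shown because its match lies 19 bases before the start; it is read on the other strand and stands in capitals.
Kif11, chr19:37376132-37376381, plus strand: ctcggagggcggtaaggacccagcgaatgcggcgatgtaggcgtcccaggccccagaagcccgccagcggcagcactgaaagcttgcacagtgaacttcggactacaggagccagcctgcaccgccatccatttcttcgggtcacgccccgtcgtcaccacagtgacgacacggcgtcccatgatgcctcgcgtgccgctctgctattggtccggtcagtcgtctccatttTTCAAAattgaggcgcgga
TTTGAA was present for 16.5% of higher genes and 19.3% of lower genes.

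p53 targets and genes of senescence included fewer called genes. Of 18 p53 targets 4 were higher and none lower, with a median of 0.23, which turned to -0.03 with library totals. The stress cytokine Gdf15 had 1366 reads in BLM and 138 in sham (3.60), and Cdkn1a, which encodes the cell cycle inhibitor p21, had 66.3 CPM in sham and 144 in BLM (1.11, 1.05 to 1.18). With library totals Cdkn1a was not called (0.85). Cdkn2a, which encodes p16 and p19Arf, had 28 reads in BLM and 41 in sham, and was not called (-0.25, with an interval that held 0). Its neighbour Cdkn2b had 112 and 530 reads (-1.94). Lmnb1, a nuclear lamina gene known to be lost in senescent cells, had 1817 and 853 reads (1.39), and Plaur, the urokinase receptor, 5710 and 3242 (1.12). Dpp4, a surface peptidase also reported on senescent cells, had 2262 and 9470 (-1.77).

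Markers of both cell types of the alveolar lining were lower. Alveolar type 2 cells make surfactant, and 7 of their 12 markers were lower and none higher, with a median of -1.39. Sftpc had 3902 reads in BLM and 37826 in sham (-2.98), Lamp3 362 and 2456 (-2.46), Sftpa1 944 and 5740 (-2.30) and the phosphate transporter Slc34a2 1935 and 9421 (-1.98). Among those not called were the lipid transporter Abca3 with 4128 and 5211 reads (-0.04) and the protease Napsa with 1506 and 1746 (0.09). Alveolar type 1 cells form the thin gas exchange surface, and 5 of their 10 markers were lower, among them Hopx with 1307 and 7151 reads (-2.15), Rtkn2 with 444 and 1704 (-1.64) and Emp2 with 16839 and 59617 (-1.52). Ager, a widely used type 1 marker, had 1306 and 2274 (-0.50) and the water channel Aqp5 331 and 430 (-0.08), neither of them called.

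Transitional epithelial markers were led by a few genes. Cldn4, Areg and Plaur were higher, but macrophages and other cells also make the last of these, and the keratins of that state were not called: Krt8 had 287 reads in BLM and 229 in sham (0.62), Krt18 177 and 170 (0.36) and Krt19 684 and 813 (0.05). Hbegf was lower, with 443 and 1107 (-1.02), a call that did not hold with TMM from the unsorted libraries alone. All 5 basal cell markers passed as higher, yet each had at most 50 reads. Trp63 had 50 and 22 reads and Krt5 17 and 8, and Krt17 had 18 reads in BLM and none in sham, at least 7.38-fold higher against the floor of 3 reads.

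Airway markers did not move one way. Of 9 ciliated cell markers 6 were higher, with the ciliary transcription factor Foxj1 at 423 reads in BLM and 98 in sham (2.40), Ccdc153 at 139 and 50 (1.76) and Rsph1 at 52 and 2 (4.66, 3.07 to 8.08). The most abundant, Sec14l3, had 4322 and 5613 reads (-0.08) and Tppp3 1135 and 3099 (-1.15), so the summed level of the list was 163 CPM in BLM and 185 in sham. Most club cell markers were not called, with Scgb1a1 at 2756 and 4694 reads (-0.47) and Cyp2f2 at 1143 and 937 (0.59); Aldh1a1 was lower (1026 and 4478, -1.83), as was Bpifa1 (87 and 266, -1.31).

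Capillary endothelium was lower in both of its types. Aerocytes, the large capillary cells of gas exchange, had 6 of 8 markers lower and a median of -1.44, with the endothelin receptor Ednrb at 3381 reads in BLM and 14173 in sham (-1.77) and Apln at 1458 and 5292 (-1.56). Car4 of the same list had 4407 and 7961 (-0.55). General capillary cells, which renew both types, had 4 of 8 lower and a median of -1.04, with Plvap at 4157 and 14761 (-1.53) and Gpihbp1, which anchors lipoprotein lipase, at 1294 and 3926 (-1.30). The pan-endothelial Pecam1 differed less, with 746 CPM in BLM and 1123 in sham (-0.59).

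Larger vessels were mixed, with list medians below 0. Of 7 arterial markers 1 was higher and 2 lower, with a median of -0.24. Of 7 venous markers 1 was higher and 3 lower, with a median of -0.68. Vwf, the clotting factor carrier of veins and arteries, had 33821 reads in BLM and 32000 in sham (0.38), and the artery marker Gja5 1152 and 1011 (0.49). Ackr1, a chemokine-binding receptor of venules, was higher with 168 and 23 reads (3.14), and Vcam1 lower with 1031 and 3076 (-1.28). Of 5 lymphatic markers measured 1 was higher and 2 lower, with a median of -0.38. Prox1 was higher with 517 and 252 reads (1.33), and Lyve1, which some macrophages also carry, lower with 3287 and 14821 (-1.87). Of 24 genes of vascular signalling 12 were lower and 2 higher. Angpt1, the ligand that stabilizes vessels, had 354 and 2144 reads (-2.30), Bmp6 2470 and 9726 (-1.68) and Bmp4 141 and 548 (-1.66). The higher members were Grem1, which binds such ligands, and Angptl4 with 773 and 222 (2.10).

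Pericytes, the contractile cells on capillaries, had a median of -2.18, the same to 2 decimals as that of red cell markers, with 7 of 8 lower. Gucy1a1, a subunit of the nitric oxide receptor, had 1619 reads in BLM and 10156 in sham (-2.35), Trpc6 268 and 1850 (-2.49), Higd1b 41 and 252 (-2.31), Notch3 946 and 4159 (-1.84) and Pdgfrb 1051 and 3353 (-1.37). Cspg4, the NG2 proteoglycan, went the other way with 2851 and 788 reads (2.15); some macrophages are known to make it too. Smooth muscle markers were divided between Myh11 with 344 and 1142 (-1.43), Des with 407 and 1360 (-1.44) and Hhip with 264 and 1252 (-1.94), all lower, and Acta2 with 664 and 681 (0.26) and Tagln with 100 and 102 (0.27), which were not called.

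Platelet and red cell markers were lower without exception. All 8 platelet markers were called, with a median of -2.14, Ppbp having 1149 reads in BLM and 10000 in sham (-2.82) and Pf4 125 and 684 (-2.15). All 8 erythroid markers were called too, with a median of -2.18, and Hbb-bs had 942 and 12347 (-3.41) and Alas2 196 and 1002 (-2.05). Paired globin genes are near-identical, so reads may be split between Hba-a1 and Hba-a2 and between Hbb-bs and Hbb-bt. Red cells were lysed during preparation and platelets stick to other cells, and the part of the preparation in these values was not tested.

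Lymphocyte markers differed by type. None of 10 T cell markers was called, with Cd3e at 223 reads in BLM and 325 in sham (-0.24) and Cd4 at 181 and 118 (0.91). Of 40 T cell receptor gene segments measured, 11 were lower and 2 higher, with a median of -0.76; the 16 variable segments among them had 9 lower, none higher and a median of -1.96. Regulatory T cell genes were higher in 3 of 6, by little: Ctla4 had 165 and 90 reads (1.17), Il2ra 235 and 138 (1.06) and Tnfrsf4 131 and 75, and none of these calls held with library totals. NK cell markers were lower in 5 of 8, with the granule protease Gzma at 54 and 372 (-2.48). Of 8 B cell markers 3 were lower, the receptor components Cd79b with 216 and 1008 reads (-1.92) and Cd79a with 400 and 1333 (-1.44) and Ms4a1, which encodes CD20, with 754 and 2515 (-1.44).

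Variable and constant immunoglobulin genes both had medians below 0, but differed in their calls. Of 91 variable segments measured, 41 were lower and 3 higher, with a median of -1.30. Of 11 constant region genes 5 were higher and 3 lower, with a median of -0.36. Among the higher ones were class-switched genes. Ighg1 had 110 reads in BLM and 12 in sham (3.44), Ighg2b 134 and 23 (2.81), Ighg2c 80 and 22 (2.13) and Ighg3 82 and 6 (3.95). The lower constant genes are not reported here. Plasma cell markers were not called apart from Sdc1 with 979 and 506 (1.25), which epithelium and macrophages can also carry, and Jchain had 286 and 183 (0.94).

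Enzymes that handle foreign compounds and oxidants fell on both sides, with 8 of 20 higher and 7 lower. Hmox1, which degrades heme, had 8248 reads in BLM and 803 in sham (3.66) and the cystine transporter Slc7a11 4918 and 726 (3.06). Among the 7 lower genes, Gsta3 had 144 and 1401 reads (-2.98), Fmo2 2599 and 18959 (-2.57), Cyp4b1 3407 and 22881 (-2.45) and Fmo1 8347 and 40433 (-1.98). Immediate early genes, which dissociation itself can induce, did not move one way: Egr2 had 3832 and 854 reads (2.46), Fosb 23325 and 7114 (2.01) and Fos 42816 and 18713 (1.49), but 14 of the 18 genes in that list were not called and the heat shock gene Hspb1 was lower with 1833 and 5152 (-1.19). Among 15 clock genes Bhlhe41, a repressor also abundant in alveolar macrophages, had 3977 and 452 (3.44) and Hlf 72 and 432 (-2.28); 12 were not called.

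Some abundant genes hardly differed. Per length, the most abundant of those with a log2 ratio under 0.1 in size were B2m with 1386 CPM in sham and 1367 in BLM (-0.02), Tmsb4x with 1905 and 1927 (0.02) and Rps3a1 with 480 and 482 (0.01). The genes that the study used as references in quantitative PCR were not among them. Between BLM and sham it measured frozen lung tissue, with Hprt as the reference and Gapdh for p16, while Actb was its default elsewhere. Actb had 3697 CPM in sham and 8409 in BLM (1.19), Gapdh 151 and 382 (1.34) and Hprt 46.6 and 74.6 (0.68). Actb was not called with library totals (0.92). Of 79 cytosolic ribosomal protein genes none was higher and 4 were lower, with a median of -0.57. Rps27 had 2645 reads in BLM and 8663 in sham (-1.41).

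The 4 sorted libraries give the same contrast in cells the unsorted comparison did not use, although they may come from the same pooled lungs and are no replicates. In Lamp1-depleted cells 13.3% of 20852 genes were higher and 19.8% lower, and in Lamp1-enriched cells 8.96% of 21671 genes were higher and 7.01% lower. Of the genes called higher in unsorted cells, 894 of 2378 (37.6%) were also higher in the depleted cells and 908 of 2473 (36.7%) in the enriched cells. Of those called lower, 978 of 2314 (42.3%) were lower in the depleted and 736 of 2776 (26.5%) in the enriched cells. In all 3 comparisons 433 of 2211 genes were higher (19.6%) and 295 of 2198 lower (13.4%), and 1068 and 988 genes respectively were called in unsorted cells but in neither fraction. Opposite calls were rarer, 141 and 144 genes in the depleted and 40 and 75 in the enriched cells for those higher and lower in unsorted cells.

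Gm26917 had 11599697 of the 30236120 reads in the BLM library of the depleted fraction and 1387820 of the 39609874 reads in its sham library; the part of this in the ratios was not tested. Library totals would move every log2 ratio there by -0.72, and DESeq2 size factors by 0.15. Grem1 was higher in both fractions (log2 ratio 3.73 in depleted and 7.58 in enriched cells), as were Spp1 (5.13 and 3.17), Mmp12 (3.85 and 4.18), Trem2 (4.11 and 4.46), Gpnmb (3.21 and 2.20) and Cldn4 (5.05 and 6.19). Cyp1a1 (-4.45 and -5.19), Lrat (-4.22 and -2.89), Inmt (-1.72 and -2.62) and Sftpc (-1.90 and -2.49) were lower in both. Ctss was higher in the enriched cells (2.70) and not in the depleted cells (-0.17), and Gm10800, a predicted gene that was lower in unsorted cells (-1.53), was higher in the depleted cells (4.15).

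Medians of the lists differed between the preparations, and none of these differences was tested. The lysosome list had a median of 2.73 in unsorted, 0.01 in depleted and 0.60 in enriched cells. The cell cycle list had 2.43, 0.82 and 2.00, and interstitial macrophage markers 3.24, 1.08 and 1.65. Scar-associated macrophage markers had 4.76, 2.90 and 2.20, with 10 of 11 called higher in each comparison. Platelet markers had -2.14, -1.65 and -2.60, and pericyte markers -2.18, -0.68 and -1.46. The lipid and cholesterol list had 1.06, -0.16 and 0.25, and the glycolysis and hypoxia list 1.04, -0.10 and 0.56. Neutrophil markers had 0.10 in unsorted cells but 2.62 in the depleted cells, where all 8 measured were higher. Actb, at 1.19 in unsorted cells, had -0.80 in the depleted and 0.10 in the enriched cells, and Lamp1, at 0.65 in unsorted cells, had -0.40 and -0.38.

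**Figure D5:**
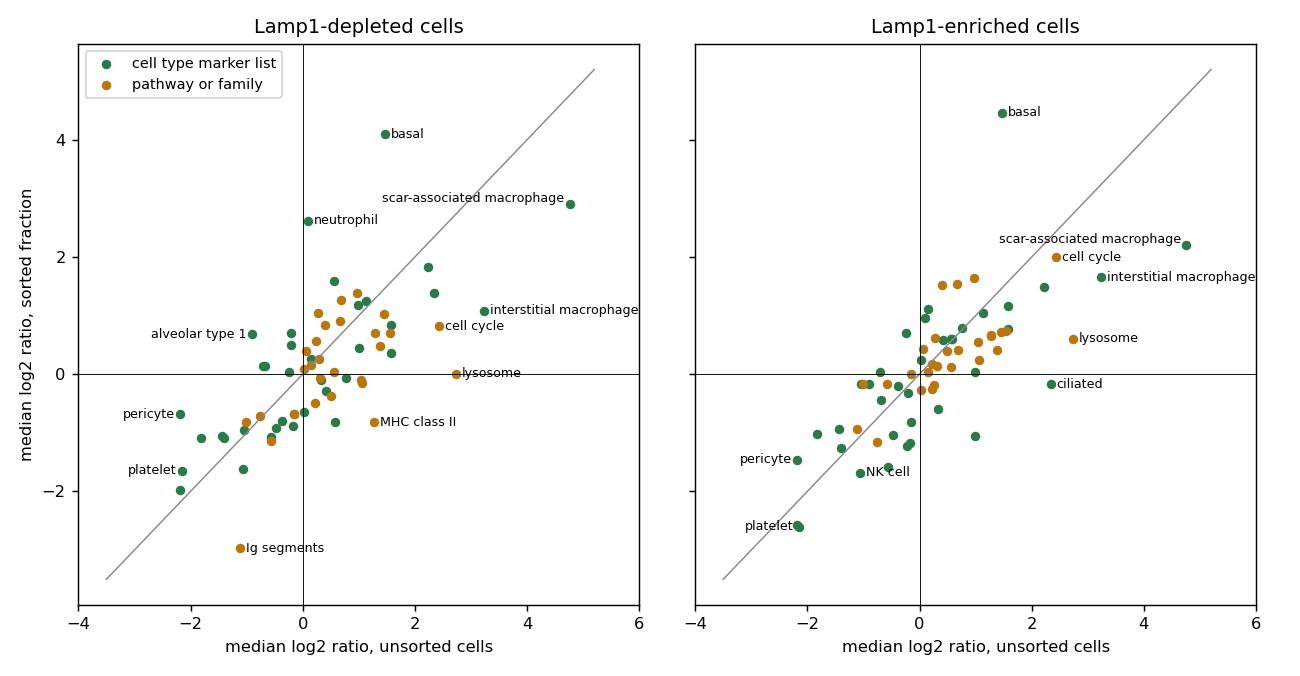
Each point is 1 list, with its median log2 ratio of BLM over sham in unsorted cells on the x axis and in the Lamp1-depleted (left) or Lamp1-enriched (right) fraction on the y axis; the diagonal marks equal medians. The lysosome list lies at 2.73 in unsorted cells and at 0.01 and 0.60 in the fractions, and neutrophil markers at 0.10 in unsorted and 2.62 in depleted cells.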

How the data were processed

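RNA-Seq libraries of BLM and sham lung cells, unsorted or sorted by Lamp1, were grouped by the labels, 1 library for each of 6 conditions. The authors deposited whole-number read counts for each gene, which they had not scaled. The submitters' processing notes name Trimmomatic 0.36, STAR 2.5.2b, featureCounts (Subread 1.5.2), DESeq2 and the build GRCm38, without their settings; how multi-mapped reads and strand were counted is not given in the sources used here. Gene names, biotypes and exon lengths came from GENCODE M21 (49056 of 49315 genes matched, 259 did not).

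TMM factors over the 6 libraries were computed with edgeR 4.0.16 under R 4.3.3. Before taking log2 ratios, 0.5 reads were added in proportion to depth, and 95% Clopper-Pearson intervals of the share of reads came from scipy 1.17.1 under Python 3.11.15, with pandas 2.3.3 for the tables and matplotlib 3.10.9 for the plots. With 39728284 and 40742095 reads in the unsorted libraries, the median interval width was 2.45 on the log2 scale at 10 to under 50 reads and 0.10 from 5000 reads. Reads are not independent molecules, and intervals and the floor of 3 reads for a library at 0 cover counting error only. No test between conditions was possible with 1 library a side. On simulated counts for 22095 genes, all 200 genes changed by at least 1.5 on the log2 scale were called, and 158 unchanged genes were called. Of the unchanged genes, 95.9% had an interval that held the true ratio. The counts were Poisson draws with the same scaling factors, and only genes with an expected count of at least 100 were changed. The simulation therefore checks the arithmetic of the calls, and says nothing of changes in rare genes or of spread between mice.

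The comparison, the gene lists and the markers were chosen with earlier results of these data known. Genes were named by a rule: the 25 protein-coding genes with the largest and the 25 with the smallest ratio among called genes that reached 100 reads, the 15 largest gains and losses in CPM, up to 5 called members per list and direction, all marker genes, genes that the study names, the 10 most abundant genes per length with a log2 ratio under 0.1 in size, and Gm26917 and Gm42418. The text names some of these, and some members of the lists are not reported here. Alternatives were DESeq2 size factors (DESeq2 1.42.0), library totals, TMM from the unsorted libraries alone, a prior of 2 reads, minimums of 1 or 50 reads, protein-coding genes only and higher fold limits. Both alternatives for the sorted fractions were chosen after seeing the data. Promoter sequences came from RefSeq, GRCm38.p6.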

Additional observations from a re-analysis of the deposited data

Results flagged for a closer look

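Of all lists, 3 had medians of at least 0.5 on opposite sides of 0 in unsorted cells and in the Lamp1-depleted fraction, among lists with at least 5 members measured in both. With 1 library per group, none of these differences was tested. Alveolar type 1 markers had a median log2 ratio of -0.90 in unsorted cells and 0.68 in Lamp1-depleted cells, where 3 of 10 were higher and none lower. MHC class II genes had 1.28 in unsorted and -0.82 in Lamp1-depleted cells, with 4 of 10 lower in the fraction. Type 1 dendritic cell markers had 0.58 and -0.82. Library totals would move every ratio in the depleted fraction by -0.72. That is more in size than the 0.68 of alveolar type 1 markers, whose opposite sign would be lost. In unsorted cells, library totals gave type 1 dendritic cell markers a median of 0.32, under the limit of 0.5, and MHC class II genes 1.02.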

How the results depend on the processing

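Calls moved with the fold limit and with which genes were counted. Limits of 2 and 3 on the log2 scale left 1129 and 377 genes higher, and 1138 and 439 lower. With at least 50 reads 1773 genes were lower, and among protein-coding genes only 1619. Library totals shifted every log2 ratio by -0.26, gave 2275 higher and 4720 lower genes (32.5% of calls higher, beside 48.5%), and turned the medians of 8 lists that lay within 0.26 of 0; an example is the interferon-stimulated list, from 0.02 to -0.24. Requiring 50 reads turned the plasmacytoid dendritic cell list from 0.33 to -0.50. No other list median changed sign under the alternatives run. Of the named genes, library totals lost 25 calls and added 13, DESeq2 size factors lost 3, TMM from the unsorted libraries alone lost 5 and a prior of 2 reads lost 2; none reversed. With library totals the genes called the same way in unsorted and Lamp1-depleted cells became 427 higher and 2363 lower, beside 894 and 978. No paired analysis was possible because the unsorted comparison had 1 library a side, and neither could be left out; the sorted libraries may come from the same pooled lungs and were not used as replicates. Depth limits rare genes most, with a median interval width of 2.45 on the log2 scale at 10 to under 50 reads.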
